A study of Mus musculus with 4 samples.

Results

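Nefl, Nefm, Ina, Stmn2, Stmn3, Tubb3, Elavl3, Elavl4, Rtn1 and Gap43 are 10 mouse genes known mainly from neurons. Their transcripts were followed here in cells derived from embryonic stem cells after 6 days of induction toward gonadal somatic cells (D6). They were picked by name from the 31053 genes of the count tables, with their counts in these libraries already known. Their levels at D6 and at E10.5 are therefore descriptions, and no test was applied to them. A cell entered the counts only if it passed the study's limits on detected genes and on the percentage of mitochondrial transcripts.

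The study profiled single cells of XY gonads and of the induced cells with droplet-based 3′ RNA-seq, in 1 library per condition. ICR embryos gave the 3 in vivo libraries (E10.5, E11.5, E12.5). The E10.5 tissue also held dorsal mesenchyme, whereas gonads of the later stages had been freed of mesonephros. The D6 cells came from 1 cloned line, N271S9C, for which the labels give the strain as C57BL/6J and the transgenes as Nr5a1-hCD27a and Sox9-2A-CGFP; the study's methods call the first reporter Nr5a1-hCD271 and describe a cross of 129X1/SvJ and C57BL/6J. The line was exposed in turn to FGF2 with Activin A, to CHIR99021, BMP4 and EGF, to retinoic acid, Sonic hedgehog, PD0325901, EGF and BMP4, and to BMP4, FGF9 and the Wnt inhibitor IWR1, and cells carrying the Nr5a1 reporter were enriched on magnetic columns. The kit was version 2 for the embryos but version 3 for D6, so kit, strain, culture and sorting cannot be told apart from the condition. With no second library in any condition there is no replicate check, and every interval given is a 95% exact interval that covers counting error only.

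After the limits, 2285 cells were left at D6, with a median of 4607 unique molecular identifiers (UMIs) per cell. By the paper's account, reporter-positive cells remained a minority after the enrichment. Nr5a1 UMIs were found in 29.1% of the retained D6 cells, and 66.4% held Nr2f2 UMIs but none of Nr5a1. The in vivo libraries kept 3837, 2101 and 2764 cells in order of stage, with medians of 8167, 11926 and 10946 UMIs. The in vivo libraries shared between 10 and 19 deposited barcodes per pair, and the D6 library shared 0 with any of them. Levels are given as CPM, the UMIs of a gene per 1000000 UMIs of the same cells, and a cell is called positive for a gene when it holds at least 1 UMI of it.

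Neurofilaments are the intermediate filaments of axons. Nefl encodes the light chain and Nefm the medium chain, and Ina encodes alpha-internexin, which joins them in young neurons. Stmn2 and Stmn3 are stathmins, which regulate microtubule assembly in growing neurites, and Tubb3 is the neuronal beta-tubulin. Elavl3 and Elavl4 are RNA-binding proteins that appear as precursors become neurons, Rtn1 is a reticulon of the endoplasmic reticulum, and Gap43 is a protein of growth cones. In most non-neuronal cells the repressor REST, which binds an element called RE1, holds many neuronal genes silent.

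In the GRCm38 build, Nefl (ENSMUSG00000022055) is a plus-strand gene on chromosome 14 (68083863 to 68089095) that falls inside the annotated span of Nefm (ENSMUSG00000022054), a minus-strand gene (68082590 to 68124846). The exons of the pair share 1108 bases. Whether strand was used in the counting is not given in the sources used here, and reads from the shared bases may not be told apart. Promoter windows of 300 bases from RefSeq (GRCm38.p6), from 250 before to 50 after the transcript start, were matched for 6 of the 10 genes, with none for Nefl, Nefm, Stmn2 and Gap43. The windows of Ina, Tubb3 and Elavl3 are shown because at least 87.3% of the UMIs of each of these 3 genes at D6 lay in the same 6 cells, which held at least 6 of the 10 genes each. They are chr19:47014431-47014730 on the plus strand, chr8:123411303-123411602 on the plus strand and chr9:22051974-22052273 on the minus strand, and capitals mark matches to 6 searched motifs on either strand.
Ina: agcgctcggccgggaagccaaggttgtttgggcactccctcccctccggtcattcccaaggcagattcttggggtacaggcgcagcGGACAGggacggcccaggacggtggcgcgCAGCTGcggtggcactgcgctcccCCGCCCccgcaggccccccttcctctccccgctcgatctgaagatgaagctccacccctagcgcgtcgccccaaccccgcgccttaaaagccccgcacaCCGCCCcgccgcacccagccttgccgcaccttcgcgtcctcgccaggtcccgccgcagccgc
Tubb3: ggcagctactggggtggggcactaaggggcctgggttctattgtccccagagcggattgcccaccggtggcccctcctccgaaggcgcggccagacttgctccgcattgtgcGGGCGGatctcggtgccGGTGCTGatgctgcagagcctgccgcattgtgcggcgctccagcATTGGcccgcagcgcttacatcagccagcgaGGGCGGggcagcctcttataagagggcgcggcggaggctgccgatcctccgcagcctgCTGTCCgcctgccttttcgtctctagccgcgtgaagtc
Elavl3: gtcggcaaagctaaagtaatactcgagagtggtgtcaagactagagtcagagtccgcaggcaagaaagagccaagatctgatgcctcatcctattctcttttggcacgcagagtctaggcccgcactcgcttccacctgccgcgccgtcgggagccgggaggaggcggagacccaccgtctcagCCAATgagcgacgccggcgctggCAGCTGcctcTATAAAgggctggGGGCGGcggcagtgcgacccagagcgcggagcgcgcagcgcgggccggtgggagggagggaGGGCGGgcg
Searched were the TATA box, written TATAAA, and the CCAAT box. The GC box was searched as GGGCGG, and an E-box, the same on both strands, as CAGCTG. From the RE1 element the letters CAGCACC were searched, and separately the letters GGACAG. No base of the 3 shown windows lay in 2 matches. All 3 windows held GGGCGG, which 35.7% of the 32851 mouse promoter windows hold. Ina and Elavl3 held CAGCTG (16.3% of all windows), and Tubb3 and Elavl3 held CCAAT (37.4%). TATAAA was found in Elavl3 (13.6%), CAGCACC in Tubb3 (7.14%) and GGACAG in Ina and Tubb3 (22.2%). Their GC contents were 71.7%, 67.3% and 65.3%, against a median of 52.7% over all windows, and they held 32, 26 and 29 CG pairs against a median of 7. Stmn3 and Rtn1, with smaller majorities of their UMIs in the same cells, had mixed windows. Stmn3 had 49.7% GC, 6 CG pairs and no match. The 3 Rtn1 windows had 45.3%, 46.3% and 73.3% GC, with 8, 3 and 43 CG pairs. They held 1, 0 and 3 GC box matches. The last of these windows stood above all 3 shown windows in GC and CG pairs. Elavl4 had 37.8% of its UMIs in the same cells. Its 4 windows had 43.7% to 57% GC, 4 to 23 CG pairs and no GC box match. Some windows of Rtn1 and Elavl4 held other matches. A link between window content and the share of UMIs in the 6 cells was not tested. These matches are letters in a window and were not tested as binding sites.

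At D6 the light chain Nefl was by far the most abundant of the 10 genes. It gave 1008 UMIs, or 84.7 CPM (79.5 to 90.1), in 353 cells (15.4%). At E10.5 it stood at 44.5 CPM (42.3 to 46.9), at E11.5 at 3.78 CPM and at E12.5 at 0.732 CPM. Its level at D6 was 1.90 times that at E10.5 (1.75 to 2.06), 22.4 times that at E11.5 (18.1 to 28.0) and 116 times that at E12.5 (77.9 to 179.7). The level thus ran down from D6 through the 3 stages in order, with no overlap between the counting intervals of neighbours.

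The medium chain did not follow. Nefm was at 8.82 CPM (7.21 to 10.7) in 60 D6 cells (2.63%), against 57.2 CPM (54.6 to 59.8) at E10.5, 5.08 CPM at E11.5 and 1.02 CPM at E12.5. Ina was at 6.89 CPM (5.48 to 8.55) in only 10 D6 cells (0.438%), against 13.4 CPM at E10.5 and 4.55 and 4.71 CPM at E11.5 and E12.5. At E11.5 and E12.5 Ina was found in 74 (3.52%) and 131 (4.74%) cells, but these libraries were deeper than D6. After cells were thinned to the same depth, 0.793% (0.444 to 1.30) were positive at E11.5 and 0.507% (0.277 to 0.848) at E12.5. The share at D6 was then 0.353% (0.152 to 0.694), and its interval overlapped both others. Most of the positive cells at E11.5 and E12.5 held at least 3 germ cell markers, and only 2 cells at D6 held as many.

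Of the microtubule genes, Stmn2 was the second most abundant of the 10 at D6. It stood at 27.0 CPM (24.1 to 30.1) in 103 cells (4.51%), close to the 32.5 CPM (30.5 to 34.5) at E10.5 and above 3.41 CPM at E11.5 and 2.58 CPM at E12.5. Tubb3, which led at E10.5 with 77.7 CPM (74.7 to 80.8), was at 5.29 CPM (4.07 to 6.77) in 14 D6 cells (0.613%). It was at 0.609 CPM at E11.5 and 3.31 CPM at E12.5. Stmn3 was at 4.12 CPM (3.04 to 5.44) at D6, 8.89 CPM at E10.5, 0.162 CPM at E11.5 and 0.0878 CPM at E12.5.

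The ELAVL genes were low at D6. Elavl3 was at 2.10 CPM (1.36 to 3.10) in 8 cells and Elavl4 at 3.11 CPM (2.19 to 4.28) in 28 cells, against 12.7 and 22.2 CPM at E10.5. Rtn1 was at 7.89 CPM (6.38 to 9.66) at D6 and 21.2 CPM at E10.5, and Gap43 at 13.2 CPM (11.2 to 15.4) and 35.5 CPM. In the E11.5 and E12.5 libraries these 4 genes stayed at 3.78 CPM or below.

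Summed over the 10 genes, the level was 325.7 CPM (319.6 to 332.0) at E10.5, 25.9 CPM at E11.5, 19.0 CPM at E12.5 and 163.0 CPM (155.9 to 170.4) at D6. The make-up of this sum differed. Tubb3 led it at E10.5 with 23.9%, whereas Nefl made up 51.9% of it at D6.

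**Figure D1:**
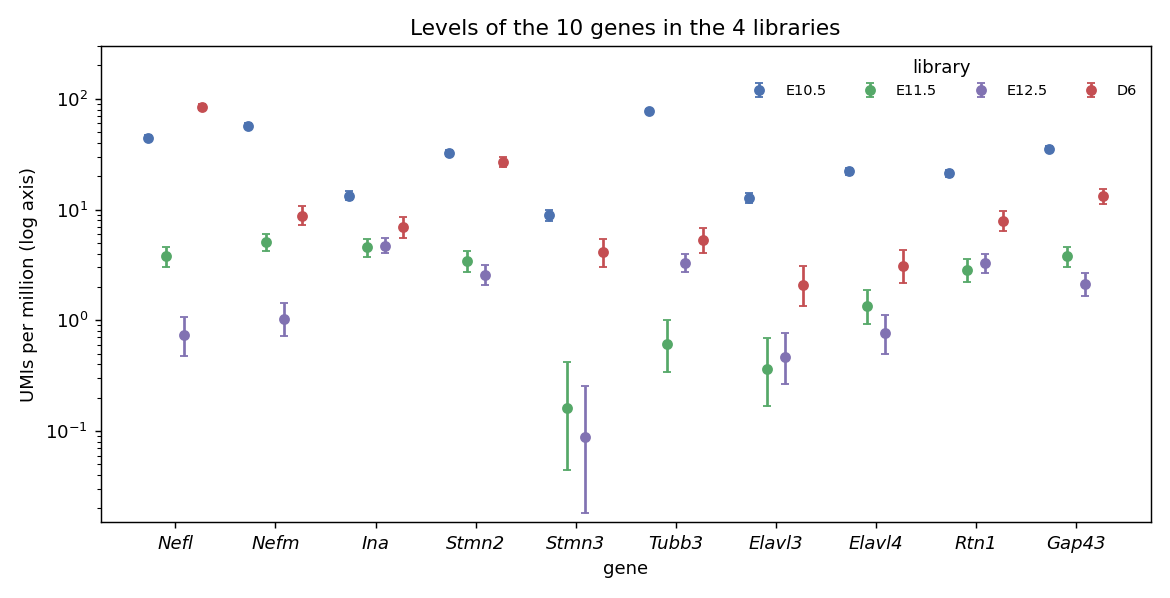
Level of each of the 10 genes (CPM, log axis) in each of the 4 libraries, with bars for the 95% exact Poisson interval. Nefl at D6 (84.7 CPM) lies above its other libraries, whereas Tubb3 falls from 77.7 CPM at E10.5 to 5.29 CPM at D6.

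Changes were called at a fixed 2-fold on log2(CPM + 5), among genes at 10 CPM or more on at least 1 side. Against E10.5, 9 of the 10 genes could be scored. None was called higher at D6, where 25.9% of all scored genes were. Nefm, Tubb3, Elavl3, Elavl4, Rtn1 and Gap43 were called lower, where 7.31% of all scored genes were. Nefm, Ina, Tubb3, Elavl3, Elavl4 and Rtn1 reached the minimum only through E10.5. They could not have been called higher at D6, so these counts are a description. The median log2 difference was -1.09 over all 10 genes, Stmn3 included, and 0.30 over all scored genes. Against E11.5 and E12.5 the same 3 genes could be scored, Nefl, Stmn2 and Gap43, which reached the minimum only through the D6 library, and all 3 were called higher in both. The share of all scored genes called higher was 20.2% against E11.5 and 19.8% against E12.5, and none of the 3 was called lower, where 4.38% and 5.91% of scored genes were. With TMM or median-of-ratios scaling the median over all genes against E10.5 moved from 0.30 to -0.13. Both scalings lower D6 levels against E10.5. The 6 genes lower than at E10.5 therefore stayed called by construction, which is no check on them. Under either scaling Gap43 was no longer called against E11.5.

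Several of these genes were carried at D6 by very few cells. Counting how many of the 10 genes each D6 cell held, 1718 cells held none, 485 held 1, 67 held 2 and 9 held 3. None held 4 or 5, and 6 cells held between 6 and 10. The limit of 6 was set after this distribution was seen. At E10.5 the counts ran without such a gap, with 58 cells (1.51%) holding at least 6 genes against 6 (0.263%, 0.0964 to 0.571) at D6. After each cell was thinned to 2000 UMIs, 39 E10.5 cells and 5 D6 cells held at least 6. At E11.5 and E12.5, 0 of 2101 and 0 of 2764 cells did, which allows shares of up to 0.143% and 0.109%.

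**Figure D2:**
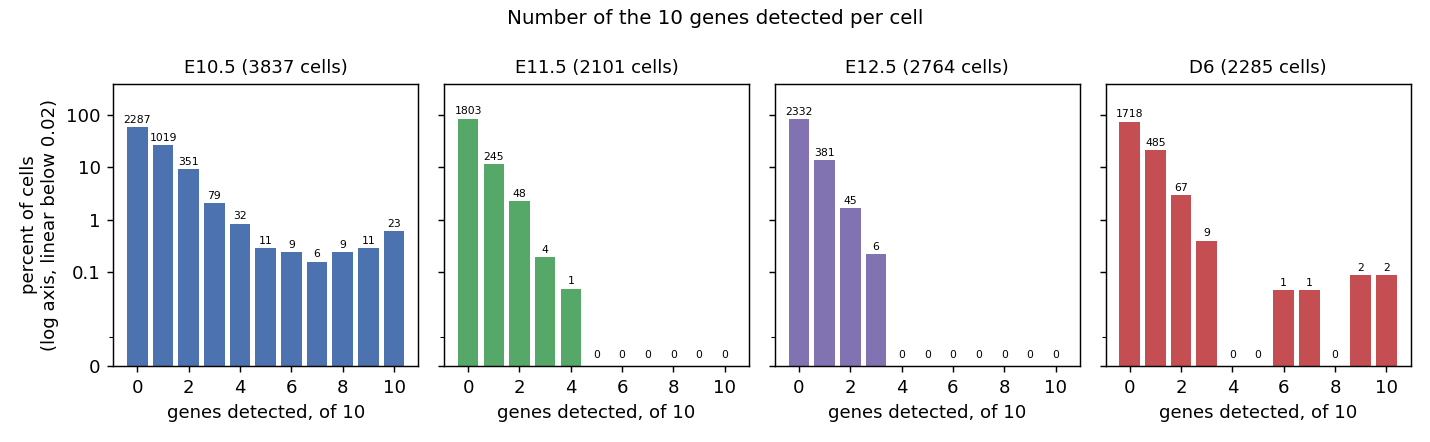
Percentage of retained cells (log axis) by the number of the 10 genes with at least 1 UMI in the cell, for each library. At D6 the bars stop at 3 genes and return at 6, with 6 cells holding 6 to 10 genes.

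The 6 D6 cells lay on both sides of the library median of 4607 UMIs. Their UMI totals were 11764, 5511, 5296, 3812, 3004 and 2522, and they held 10, 10, 9, 9, 6 and 7 of the genes. The first of them held 3968 genes, just under the upper limit of 4000, with 4 interstitial markers and 1 supporting marker. Of the 6 cells, 0 were marked by the doublet caller Scrublet. In the same order Ina gave 32, 16, 14, 5, 5 and 5 UMIs, and Tubb3 gave 9, 12, 10, 13, 8 and 3. Rtn1 gave 15, 16, 8, 6, 10 and 2 UMIs and Stmn2 gave 25, 17, 6, 19, 12 and 1. These 4 genes and Elavl3 were found in all 6 cells. Nefl gave 17, 12, 3, 18, 0 and 0 UMIs and Nefm 9, 2, 2, 0, 0 and 0. Some of the cells that held others of the genes thus gave 0 UMIs of these chains. The cells with 0 Nefl UMIs were the shallowest, at 3004 and 2522 UMIs, so their 0 counts do not show absence.

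These 6 cells held 93.9% of all Ina UMIs of the D6 library, 92.0% of Elavl3, 87.3% of Tubb3, 61.2% of Stmn3 and 60.6% of Rtn1. They held 37.8% of Elavl4, 24.9% of Stmn2, 21.0% of Gap43, 12.4% of Nefm and 4.96% of Nefl. At E10.5 the cells with at least 6 genes held 94.7% of Ina, 90.0% of Stmn2 and 75.5% of Tubb3, and still 54.0% of Nefl. At D6 the UMIs of Nefl, Nefm, Gap43, Stmn2 and Elavl4 thus lay mostly outside these cells, and at E10.5 Gap43 was the least concentrated at 30.4%.

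**Figure D3:**
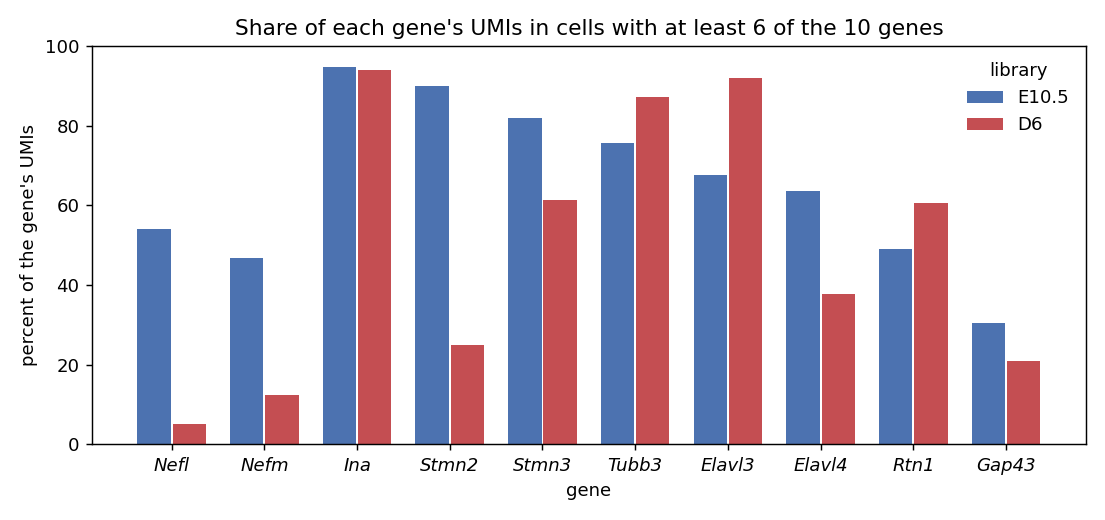
Percentage of each gene's UMIs that lay in cells with at least 6 of the 10 genes, at E10.5 (58 cells) and at D6 (6 cells). Ina stands above 90% in both libraries, whereas Nefl stands at 54.0% at E10.5 and 4.96% at D6.

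Other neuronal genes were found in the same 6 cells. Of lists chosen with earlier results of these data known, 17 of 20 synaptic and secretory genes, 18 of 20 axon and microtubule genes, 11 of 20 neuronal transcription factors and 10 of 10 neuronal RNA-binding genes had UMIs there. So did 3 of 10 transmitter enzyme genes and 3 of 14 neural progenitor and crest genes. The other D6 cells, a far larger pool, held 18, 20, 13, 10, 4 and 12 genes of these lists. Detection alone thus does not set the 6 cells apart. In level, the synaptic and secretory genes summed to 3823 CPM in the 6 cells, against 224.6 CPM over all D6 cells. Of the markers of other cell types, 4 of 8 interstitial markers were found, summing to 564.1 CPM against 1757 CPM over all D6 cells. Of the supporting markers 2 of 8 were found (62.7 against 241.3 CPM), and of the steroidogenic markers 1 of 8 (62.7 against 662.3 CPM). Coelomic epithelial, endothelial, germ and erythroid markers had 0 UMIs among 31909, which allows up to 94.0 CPM, and of these lists the coelomic epithelial one alone stood above that over all D6 cells, at 119.5 CPM. Nr5a1 had 0 UMIs in each of the 6 cells and Nr2f2 gave 5, 1, 0, 1, 1 and 3. Of 8 repressors of neuronal genes 5 had UMIs in the 6 cells, led by Hdac2 and Kdm1a with 8 UMIs each. Rest, Ptbp1 and Ctdsp1 had 0 UMIs, against 136.8, 153.5 and 51.5 CPM in the other D6 cells. As a count of 0 allows up to 94.0 CPM here, the 0 of Ctdsp1 does not separate the 6 cells from the others. Rest and Ptbp1 stood above that limit in the other cells by few expected UMIs. The genes that led these cells by fold, named after their values were seen, began with Sst, the neuropeptide somatostatin, at 3604 CPM, and included the peptide gene Cartpt at 1379 CPM and the transcription factors Lhx1 at 1128 CPM and Onecut2 at 1034 CPM.

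A reference for neurons was taken from E10.5 as the 55 cells with both Elavl4 and Stmn2, of which 48 were among the 58 cells with at least 6 genes. UMIs of 19 of 20 synaptic and 20 of 20 neuronal transcription factor genes were found in them, and also those of 6 of 8 interstitial, 5 of 8 supporting, 5 of 8 erythroid, 3 of 8 coelomic epithelial, 2 of 8 steroidogenic, 1 of 8 endothelial and 0 of 8 germ cell markers. Interstitial markers summed to 275.6 CPM and erythroid markers to 94.9 CPM in these cells. In these neurons Tubb3 was at 4163 CPM (98.2% of cells), Nefm at 1638 CPM (76.4%), Nefl at 1583 CPM (70.9%), Ina at 928.3 CPM (76.4%), Rtn1 at 740.8 CPM (80.0%), Gap43 at 675.3 CPM (63.6%), Elavl3 at 605.3 CPM (94.5%) and Stmn3 at 492.4 CPM (78.2%). The 8 genes not used to pick the neurons were all called higher there than in D6 cells as a whole (14.0% of all scored genes were called higher and 29.9% lower). Of these, 6 reached the minimum level only through the neurons, so the count is a description. The ratios ran from 18.7 for Nefl to 787 for Tubb3. The same rule at D6 took 7 cells, 5 of them among the 6.

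The 6 D6 cells were picked by a count over all 10 genes, and the E10.5 neurons by Elavl4 and Stmn2 alone. Every level of the 10 genes in the D6 cells was thus selected on, and in the neurons only those of Elavl4 and Stmn2. The levels are therefore set side by side only as a description. Nefl was at 1567 CPM (1163 to 2066) in the D6 cells, within the counting interval of the neurons. Ina was higher in the D6 cells, at 2413 CPM (1904 to 3016), as was Rtn1 at 1786 CPM (1353 to 2314). Tubb3 was lower, at 1724 CPM (1298 to 2244), as was Nefm at 407.4 CPM (216.9 to 696.7).
Transcription factors, picked from the list after their values were seen, differed as well. The E10.5 neurons held Isl1, a factor of motor and sensory neurons, at 537.6 CPM, Neurod1 at 262.0 CPM, Neurog2 at 171.7 CPM and Lhx1 at 61.0 CPM. In the 6 D6 cells Isl1 was at 188.0 CPM and came from 1 cell, whereas Neurod1 and Neurog2 had 0 UMIs. The transporter gene Slc18a3 of cholinergic neurons was at 119.7 CPM in the E10.5 neurons and had 0 UMIs in the 6 cells. In these 6 cells a count of 0 allows up to 94.0 CPM.

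Outside the 6 cells, the D6 library was left mainly with Nefl and Stmn2. Excluding cells with at least 6 genes from both libraries, a comparison chosen after seeing the data, left Nefl at 80.7 CPM at D6 against 20.8 at E10.5, a ratio of 3.88 (3.51 to 4.29), and Stmn2 at 20.3 against 3.28 CPM, a ratio of 6.19 (4.90 to 7.86). Both were then called higher at D6, where 2496 of 9593 scored genes were called higher and 689 lower. Nefm, at 7.75 against 30.9 CPM, and Tubb3, at 0.674 against 19.3 CPM, remained lower. Stmn2 reached the minimum only through D6, and Nefm and Tubb3 only through E10.5. The excluded cells were picked by these same 10 genes. They held 90.0% of Stmn2 and 54.0% of Nefl UMIs at E10.5, against 24.9% and 4.96% at D6. The rule itself thus raised both ratios, which are a description.

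Nefl in these other cells was spread over many of them at low counts. Of 349 positive cells, 171 held 1 UMI, 63 held 2, 115 held at least 3 and 10 held at least 10, and the highest held 46. That cell held 15 Nr2f2 UMIs, 0 Nr5a1 UMIs and 3 of the 10 genes. Stmn2 showed the same shape, with 97 positive cells, of which 52 held 1 UMI and 28 at least 3.

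Nefl exceeded Nefm at D6. The ratio of Nefl to Nefm UMIs was 9.60 (7.85 to 11.9) at D6, against 0.779 (0.727 to 0.835) at E10.5, 0.744 (0.563 to 0.981) at E11.5 and 0.714 (0.410 to 1.23) at E12.5. In the 6 cells it was 3.85 (2.06 to 7.72) and in the other D6 cells 10.4 (8.40 to 13.04), whereas it was 0.967 (0.870 to 1.07) in the E10.5 neurons and 0.673 (0.609 to 0.744) in E10.5 cells with fewer than 6 genes. At D6 the pooled UMIs thus held more Nefl than Nefm in both sets of cells. The 6 cells were picked by a count that included both genes, so their ratio is a description. It rests on 4 cells, with Nefl and Nefm UMIs of 17 and 9, 12 and 2, 3 and 2, and 18 and 0. The kits differed between D6 and the other libraries, and the part of the kit in this ratio was not tested.

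**Figure D4:**
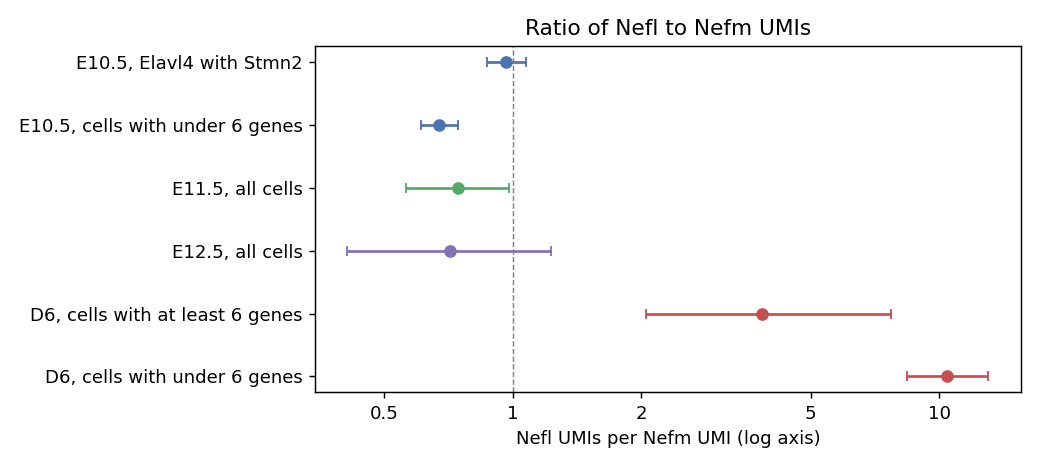
Ratio of Nefl to Nefm UMIs (log axis) at E11.5 and E12.5, in the E10.5 neurons and in E10.5 cells with fewer than 6 of the 10 genes. D6 cells are shown with and without at least 6 of the genes, and bars give the 95% interval. All D6 values lie above 2 and the in vivo values lie near or below 1.

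Few cells held both chains at D6. Of the 353 Nefl-positive D6 cells, 23 (6.52%, 4.17 to 9.62) also held Nefm, against 1.92% of Nefl-negative cells, and of the 60 Nefm-positive cells 38.3% held Nefl. At E10.5, 190 of 376 Nefl-positive cells (50.5%) held Nefm, and in the neurons 36 of 39 (92.3%) did, in cells that were deeper than those of D6. Nefl and Stmn2 met in 27 D6 cells, 7.65% of the Nefl-positive cells against 3.93% of the others, and without the 6 cells the shares were 6.59% and 3.83%. Of the 97 Stmn2-positive D6 cells outside the 6, 0 held Tubb3 (exact interval up to 3.73%) and 2 held Elavl4. Of the 2182 Stmn2-negative cells, 8 (0.367%) held Tubb3 and 21 (0.962%) held Elavl4. Tubb3 was thus too rare outside the 6 cells for the 0 to separate Stmn2-positive from Stmn2-negative cells. With the 6 cells, which were picked by these genes, 6 of 103 (5.83%) held Tubb3. At E10.5 the Tubb3 shares of Stmn2-positive cells were 13 of 51 (25.5%) without the cells of at least 6 genes and 64 of 102 (62.7%) with them.

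Nr2f2 is known from interstitial progenitors of the gonad and Nr5a1 from the gonadal somatic lineage, so the D6 cells were divided by UMIs of these 2 genes. In 1517 cells with Nr2f2 and no Nr5a1, interstitial markers summed to 2328 CPM, against 84.5 CPM in 183 cells with Nr5a1 and no Nr2f2, and steroidogenic markers to 110 against 2823 CPM. Nr2f2 is itself 1 of the 8 interstitial markers and gave 12527 of their 20919 UMIs over all D6 cells. Much of the interstitial gap was thus fixed by the division. Nefl was at 119.3 CPM (17.8% of cells) in the Nr2f2 cells and 31.6 CPM (12.0%) in the Nr5a1 cells, a ratio of 3.78 (2.68 to 5.49). Median UMIs were 4262 and 5588, so the cells with more Nefl were the shallower ones, and after thinning 12.4% and 4.42% were positive. Stmn2 was at 40.1 CPM (6.26% of cells) in Nr2f2 cells and in 0 of 183 Nr5a1 cells, which allows up to 1.64% of cells. Its level in the former was 14.4 times a floor of 3 UMIs over the latter, and the exact lower limit of the ratio was 11.6. Nefm was at 11.4 against 3.71 CPM (ratio 3.07, 1.15 to 11.52), and Gap43 at 11.4 against 4.64 CPM (ratio 2.45, 1.01 to 7.76).

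Of 4 genes that could be scored, 3 of them (Stmn2, Nefm and Gap43) only through their level in Nr2f2 cells, Nefl and Stmn2 were called higher in Nr2f2 cells, where 9.54% of all scored genes were, and none was called lower, where 8.11% were. Of the 6 cells, 5 lay in this Nr2f2 group. Without them Nefl stayed at 113.3 CPM (ratio 3.59, 2.55 to 5.22) and Stmn2 at 30.0 CPM, whereas Ina fell from 9.06 to 0.413 CPM, Tubb3 from 6.59 to 0.413 CPM, Elavl3 from 3.02 to 0.276 CPM and Rtn1 from 8.79 to 2.07 CPM.

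Taking every cell with a UMI of the marker, the 1998 Nr2f2-positive cells held Nefl at 92.3 CPM (16.0% of cells) and Stmn2 at 30.3 CPM (5.06%), and the 664 Nr5a1-positive cells held Nefl at 29.5 CPM (10.8%) and Stmn2 at 5.27 CPM (0.904%). The 481 cells positive for both, which make up most of the Nr5a1-positive cells, held Nefl at 28.8 CPM and Stmn2 at 7.11 CPM. In the 104 cells with neither, Nefl was at 35.5 CPM and Gap43 at 73.1 CPM.

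**Figure D5:**
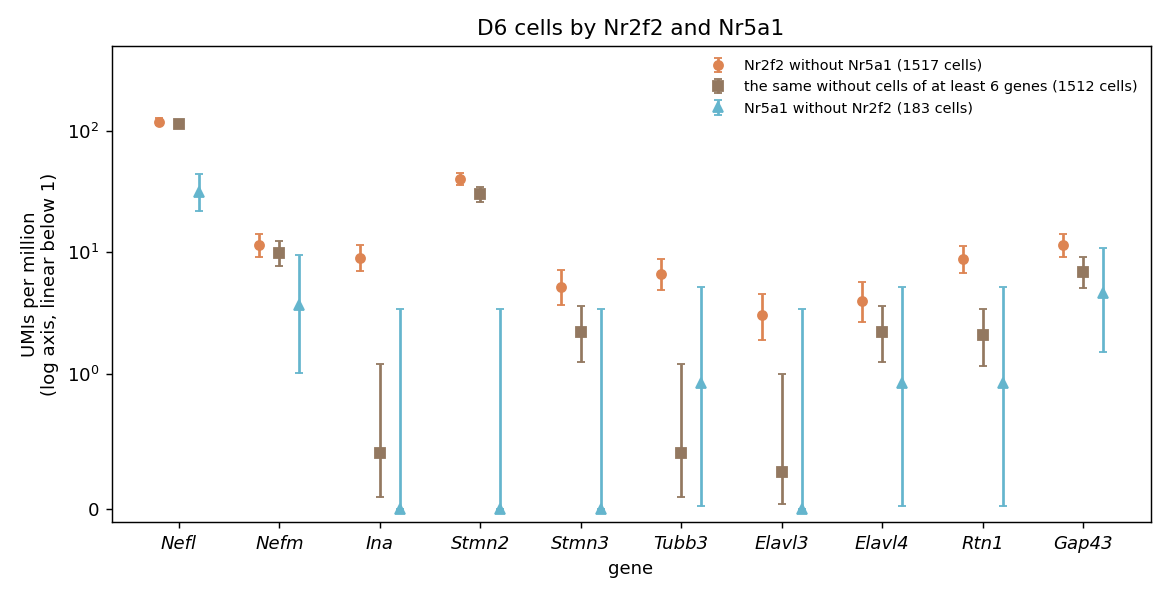
Level of each of the 10 genes (CPM) in D6 cells with Nr2f2 and no Nr5a1 (1517 cells) and with Nr5a1 and no Nr2f2 (183 cells), with bars for the 95% exact interval. The Nr2f2 cells are also shown without the cells of at least 6 genes (1512 cells). Nefl (119.3 against 31.6 CPM) and Stmn2 (40.1 CPM against 0 UMIs) stand apart.

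Cells were also grouped by holding at least 3 markers of a type. Nefl was at 78.1 CPM (13.5% of 1189 cells) in interstitial-marker cells, 38.8 CPM (18.3% of 301) in steroidogenic-marker cells, 11.4 CPM (5.36% of 112) in supporting-marker cells and 7.85 CPM (1.94% of 103) in coelomic epithelial-marker cells. The last had a median of 7198 UMIs, above the 4607 of all D6 cells, and after thinning 0.971% of them were positive, against 9.18% of interstitial-marker cells, 6.31% of steroidogenic-marker cells and 0 of 112 supporting-marker cells, which allows up to 2.68%. Median UMIs were 4689 in interstitial-marker, 6505 in steroidogenic-marker and 6602 in supporting-marker cells, so steroidogenic-marker and supporting-marker cells of like depth differed in their share.

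The genes most like the neurofilament genes at D6 were taken as those most enriched in the 394 cells with a UMI of Nefl, Nefm or Ina over the other 1891. They were Sst, F2r, Sfrp2, Syt1, Stmn2, Tubb3, Trabd2b, Tnc, Rtn1 and Crabp1. Without the 6 cells Sst, Stmn2, Tubb3, Rtn1 and Crabp1 left this list, and F2r (a thrombin receptor), Sfrp2 (a secreted Wnt modulator), Trabd2b, Tnc (an extracellular matrix protein) and Syt1 (a synaptic calcium sensor) led it. F2r was then at 317.1 CPM, Sfrp2 at 262.6 CPM and Syt1 at 83.1 CPM.

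Other neuronal and related genes were read from lists chosen with earlier results known, against the background shares given above for D6 and E10.5. The lower genes were named after their values were seen. These calls are given without TMM or median-of-ratios factors, under which higher calls fell from 78.0% to 43.0% of all calls. Stx1a, Vamp2, Cacna2d1, Dcx, Dclk1, Kif21b, Rcor1 and Marcks lay only between 1.03 and 1.41 on the log2 scale. Among the genes named below, those that reached the minimum only through D6 included Syt1, Stx1a, Dcx and Kif21b. Those that reached it only through E10.5 included Gata3, Isl1 and Crmp1, which could not have been called higher at D6. Of 20 synaptic and secretory genes 7 could be scored, none was called lower at D6, and those called higher included Syt1, Stx1a, Vamp2 and Cacna2d1. Syt1 was at 39.6 CPM against 1.32 at E10.5 and Cacna2d1, a calcium channel subunit, at 44.0 against 13.5 CPM. Of 20 axon and microtubule genes 12 could be scored, with Dcx, Dclk1, Kif21b and Ncam1 higher and Crmp1, Kif5c, Tagln3 and Mllt11 lower. Of 20 neuronal transcription factors only 3 could be scored, and Isl1 and Gata3 were lower. Of 10 neuronal RNA-binding genes 3 could be scored, and Celf4 was higher at 48.4 against 11.8 CPM. Of 8 repressors of neuronal genes Rcor1 was higher and Rcor2 lower, and Rest was at 136.5 against 111.7 CPM.
Among 12 other intermediate filament genes Lmna was higher and Des, Krt8 and Krt18 were lower, and Vim was at 697.3 against 419.2 CPM. Of 18 relatives of the 10 genes, Marcks was higher and Tubb2a, Tubb2b, Tubb6 and Marcksl1 were lower, and the broadly expressed stathmin Stmn1 was at 616.6 against 672.1 CPM.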

How the data were processed

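The authors deposited UMI counts per gene and cell for 4 libraries (E10.5, E11.5, E12.5 and D6), made with Cell Ranger against mm10: the submitters' processing notes give version 3.0.2 and the file headers 6.0.0. Cells were kept by the study's limits, with 1000 to 4000 genes and under 10% mitochondrial UMIs at E10.5, 500 to 5000 and 20% at E11.5, 2000 to 5000 and 8% at E12.5, and 1000 to 4000 and 12% at D6. Retained UMIs per library ran from 11906360 to 34173977.

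Counts were summed over cells and divided by the summed UMIs of all genes in the same cells. Levels have exact Poisson and shares exact Clopper-Pearson 95% intervals, and a count of 0 allows 3 counts. These cover counting error only. Genes at 10 CPM or more on 1 side were called at 2-fold with a pseudocount of 5 CPM. With 1 library per condition no test was possible. The 2-fold rule was tested on simulated data for D6 against E10.5 (8458 genes), and 100% of 200 changed genes were called in the right direction. The estimate fell within 0.5 of the set log2 value for 34.8% of genes lowered by 3 and 77.4% of those lowered by 2, against 100% of those raised. The changed genes were drawn only from those at 2 times the 10 CPM minimum or more, with log2 changes of 2 or 3. Calls on lower genes, or on changes near 2-fold, were therefore not covered by the simulation. Shares were also computed after thinning cells to 2000 UMIs. The cells with the highest Scrublet scores (scanpy 1.11.5), 0.8% for every 1000 cells, were marked as doublets but kept, and were removed only as an alternative. TMM and median-of-ratios scaling used edgeR 4.0.16 in R 4.3.3 on the library sums. Other alternatives were the pseudocount, the minimum level, a limit of 2 UMIs, common cell limits, all barcodes and a denominator without mitochondrial, ribosomal and globin genes.

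The 10 genes and all lists were chosen with earlier results of these data known. Named genes are these 10, per list the 3 highest at D6 and up to 6 called higher than at E10.5, and the 10 most enriched in D6 cells with a UMI of Nefl, Nefm or Ina (pseudocount 20 CPM, at least 50 UMIs). No cells were clustered. Not every gene that this rule names is reported here. The labels' protocol calls the gonads female while the titles give XY.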

Additional observations from a re-analysis of the deposited data

Results flagged for a closer look

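The contrast of Nr2f2 cells without Nr5a1 over Nr5a1 cells without Nr2f2 had counting intervals on opposite sides of 1 at D6 and in an in vivo library for 2 genes, and these differences were not tested. Ratios of other genes also crossed 1, with intervals that did not separate them in this way. Tubb3 had a ratio of 7.10 (1.21 to 286.1) at D6 and 0.106 (0.0447 to 0.224) at E12.5. Rtn1 had a ratio of 9.46 (1.64 to 379.5) at D6, 0.263 (0.124 to 0.534) at E11.5 and 0.243 (0.148 to 0.393) at E12.5. The D6 values rest on 1 UMI in the Nr5a1 cells and on the cells with at least 6 of the 10 genes. Without those cells the D6 ratios were 0.445 (0.0357 to 23.4) for Tubb3 and 2.23 (0.342 to 93.7) for Rtn1.

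Barcodes outside the study's limits also held the 10 genes. Their summed levels were 388.6 CPM over 636 barcodes at E10.5, 41.4 CPM over 348 at E11.5, 49.1 CPM over 412 at E12.5 and 162.7 CPM over 156 at D6. At E10.5, 20 of these barcodes held at least 6 of the genes, and none did in the other libraries.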

How the results depend on the processing

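Under alternatives 574 values were recomputed. A change of direction was scored only for log2 ratios that had been called at 2-fold, and 0 of these changed direction. Values that had not been called could turn, as Stmn2 at D6 against E10.5 did without the cells of at least 6 genes, from -0.23 to 1.61 on the log2 scale. Of the 134 that answer a comparison, 111 stayed within the tolerance and 23 moved. Genes called higher in Nr2f2 than in Nr5a1 D6 cells numbered 4 with a pseudocount of 1 CPM and 5 with no minimum level. Genes called lower at D6 than at E10.5 numbered 2 with a pseudocount of 20 CPM and 2 without the cells of at least 6 genes, an alternative chosen after seeing the data, which left 2 called higher. The summed level became 337.8, 29.7 and 24.8 CPM at E10.5, E11.5 and E12.5 over all barcodes, and 447.5, 38.6, 27.3 and 217.6 CPM with D6 last when mitochondrial, ribosomal and globin genes left the denominator. It was 311.9 CPM at E10.5 without doublets, and 125.1 and 127.1 CPM at E10.5 and D6 without the cells of at least 6 genes. The share of cells with at least 3 genes was 4.69%, 0.238%, 0.217% and 0.656% at E10.5, E11.5, E12.5 and D6, and became 2.06%, 0.0476%, 0% and 0.263% with a limit of 2 UMIs, 1.96%, 0.0529%, 0.0362% and 0.397% after thinning, and 5.45% at E10.5 over all barcodes. Neurons defined by 3 synaptic genes numbered 120 and at 2 UMIs 44. No paired analysis was possible because each condition had 1 library and the labels carry no replicate numbers. With TMM or median-of-ratios scaling the share of higher calls among all calls against E10.5 fell from 78.0% to 43.0%, against E11.5 from 82.2% to 40.8% and 43.7%, and against E12.5 from 77.0% to 39.1% and 42.4%. The D6 depth of 4607 UMIs in the median cell limits what can be seen in single cells.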

Other observations

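Some of the 10 genes were also found in non-neuronal cells. In cells with at least 3 endothelial markers, Gap43 was at 133.2 CPM (36 of 65 cells) at E10.5, 87.6 CPM at E11.5, 103 CPM at E12.5 and 475 CPM (13 of 15 cells) at D6. In the same cells Stmn2 was at 67.1, 59.8 and 69.3 CPM in the 3 in vivo libraries, with 1 of 15 cells positive at D6. Nefl was found in 4 of 15 such cells at D6 and in 0 of 65 at E10.5, which allows up to 4.62%.

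Ina was found in cells with at least 3 germ cell markers, in 5 of 9 at E10.5, 72 of 198 (36.4%) at E11.5 and 128 of 448 (28.6%) at E12.5, at 57.9, 36.1 and 18.4 CPM. At E12.5, cells with at least 3 supporting markers held Rtn1 at 9.48 CPM (9.52% of cells) and Tubb3 at 6.91 CPM (6.03%). In the D6 cells positive for Stmn2 outside the 6 cells, the most enriched genes, named after their values were seen, began with Sh3bgr, Edil3 and Epha7 at 128.4, 122.5 and 199.6 CPM.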
